A study of Homo sapiens with 6 samples.

Results

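The 39 genes described here act late in the cell cycle, in chromosome condensation, spindle building, chromatid separation and the final division of the cell, and are known or proposed targets of the transcription factor FOXM1. They were taken by gene name as the G2/M genes that are neither kinesins, kinetochore genes nor the main mitotic kinases, a rule that uses names and no measured value, though the set was proposed with earlier results of these data known. All 39 were found among the 58825 genes of the deposited table, and all 39 reached 1 FPKM (fragments per kilobase of transcript, scaled to the mapped fragments of a library) in at least 3 of the 6 libraries, the condition for testing. The 6 libraries came from PC9, a human lung adenocarcinoma cell line with an activating EGFR mutation. Per the labels, 3 libraries overexpressed FOXM1 with the A allele of rs3742076 and 3 overexpressed it with the G allele, and every library came from cells given gefitinib, an EGFR kinase inhibitor, at 100 nM for 24 h. Poly(A) RNA was measured. The comparison is G against A, as the design text names it; cells without overexpressed FOXM1 or without gefitinib were not analysed here, so whether FOXM1 drives these genes here was not tested. The promoter of the construct, and whether each group was 1 clone, are not given in the labels.

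FOXM1 accumulates through S and G2 phase and drives the genes that a cell needs to enter and leave mitosis. It reaches most of these promoters together with B-MYB (gene MYBL2) and the MuvB complex (LIN9 and its partners), which binds a short element called the CHR, the cell cycle genes homology region. In resting cells the same element holds the repressive DREAM complex, so the genes are switched as a block. CCAAT boxes, bound by NF-Y, usually lie a few helical turns upstream of the CHR. In EGFR-mutant lung cells gefitinib slows entry into the cycle, and transcripts of this block are widely used as a measure of proliferation.

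The promoters showed which of the genes carry these letters. RefSeq windows on GRCh38.p14, from 250 bases before to 50 bases after a start, were matched for 31 of the 39 genes, of which 5 had more than 1 window. BIRC5, FAM83D, HMGB2, PIMREG, RACGAP1, TPX2, TROAP and UBE2C were not in that table. On both strands, TTTGAA, the usual CHR, was found for 20 of the 31 (64.5%), against 18.2% of 27305 genes in the table and 12.7% of the 8894 tested genes in it. Its variant TTCGAA was found for 4 (12.9%, against 1.82% and 2.36%), and CCAAT for 25 (80.6%, against 39.7% and 43.2%). Either CHR letters together with CCAAT were found for 19 (61.3%, against 7.85% and 6.29%). Counted by window, of equal length for all, TTTGAA was in 56.8% of 37 windows of these genes and in 15.2% of all 35116. TAAACA, the core of the forkhead motif, was found for 1 gene, ASPM (3.23%, against 14.7% and 9.38%). These are matches of letters and not measured binding sites. TTCGAA reads the same on both strands, and matches of different motifs that share a base were each counted.

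The following stretches give the 100 bases before the RefSeq start, 5′ to 3′ along the gene, with CCAAT boxes, both forms of the CHR and the reverse complements of each in capitals. DEPDC1, CKAP2L and ANLN are the 3 genes with the smallest p that have TTTGAA within 50 bases before the RefSeq start. PSRC1 is shown for its TTCGAA. CKS1B, CKS2 and GTSE1 have the same letters there and had changes near 0, and UBE2S, the gene with the most negative change, has none; these 4 were chosen after their values were seen. The outermost start in the deposited positions differs for some genes. For DEPDC1 it is 68497221, so the whole printed stretch lies after it. For CKAP2L (112764664), ANLN (36389821), PSRC1 (109283186) and CKS1B (154974653) it lies inside the stretch. The CHR letters of ANLN and PSRC1 and the TTTGAA of CKAP2L then come after that start.
DEPDC1, chr1:68497083-68497182, minus strand: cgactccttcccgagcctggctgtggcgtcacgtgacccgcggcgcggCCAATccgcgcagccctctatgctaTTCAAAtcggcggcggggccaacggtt
CKAP2L, chr2:112764610-112764709, minus strand: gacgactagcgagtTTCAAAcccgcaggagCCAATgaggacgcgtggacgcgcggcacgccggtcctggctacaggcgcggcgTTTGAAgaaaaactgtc
ANLN, chr7:36389762-36389861, plus strand: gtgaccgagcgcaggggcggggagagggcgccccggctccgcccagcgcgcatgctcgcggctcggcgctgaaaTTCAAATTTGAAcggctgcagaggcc
PSRC1, chr1:109283146-109283245, minus strand: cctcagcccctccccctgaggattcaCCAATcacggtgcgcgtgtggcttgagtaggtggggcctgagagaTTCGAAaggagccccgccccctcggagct
CKS1B, chr1:154974581-154974680, plus strand: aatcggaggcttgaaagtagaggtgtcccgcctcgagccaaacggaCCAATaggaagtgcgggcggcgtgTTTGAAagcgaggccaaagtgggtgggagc
CKS2, chr9:89311095-89311194, plus strand: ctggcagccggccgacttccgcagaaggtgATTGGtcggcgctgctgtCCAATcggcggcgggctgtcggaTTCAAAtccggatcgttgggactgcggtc
GTSE1, chr22:46296770-46296869, plus strand: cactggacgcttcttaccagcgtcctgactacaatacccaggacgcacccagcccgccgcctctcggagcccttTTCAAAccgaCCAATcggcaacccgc
UBE2S, chr19:55407789-55407888, minus strand: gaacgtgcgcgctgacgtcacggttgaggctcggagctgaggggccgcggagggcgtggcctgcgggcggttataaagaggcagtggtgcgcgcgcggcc
The printed stretches of DEPDC1, CKAP2L, PSRC1, CKS1B and CKS2 share a layout in which a CCAAT box precedes a CHR, and in CKAP2L a further TTCAAA lies upstream of the CCAAT box. In ANLN the reverse complement TTCAAA runs straight into TTTGAA, which makes a palindrome, and no CCAAT is printed. In GTSE1 the order is turned round, with CCAAT nearer the start.

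Sequencing depth was estimated at 19765233 to 23289048 read-pair equivalents per library, and 12451 to 12858 genes reached 1 FPKM. Of 8 epithelial markers 8 were tested, with KRT8 at 325 to 386 FPKM and EPCAM at 109 to 120 FPKM over the libraries, which matched the labelled carcinoma line. The sum of the epithelial list was 2859 to 3488 FPKM in A and 2726 to 2910 FPKM in G. Within the list CLDN4 varied widely, at 3.02, 94.0 and 1.49 FPKM in A and 69.4, 0.50 and 75.8 FPKM in G. KRT7, KRT8 and KRT18 were lower in every G library than in any A library, where 9.57% of all tested genes were. The groups of the other epithelial markers overlapped. Of the markers of other cell types, 0 of 5 endothelial, 1 of 7 fibroblast and 1 of 7 leukocyte markers were tested. The fibroblast one was COL1A1, at 1.63 to 2.25 FPKM, and the leukocyte one was CD68, a lysosomal protein, at 35.9 to 48.7 FPKM, while DCN and LUM had no estimate in any library and PTPRC stayed below 0.04 FPKM. On the first principal component of all tested genes, which held 28.3% of the variance, A replicate 1 lay at 0.44, between the other A libraries (-20.9 and -15.2) and the G libraries (8.67 to 14.8). Genes of the mitochondrial genome made up 22.1% to 22.2% of the summed FPKM in A and 17.7% to 19.7% in G. The labels do not say whether replicates were separate cultures, so the p-values reflect only how these 6 libraries scatter, and that scatter may be technical.

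FOXM1 itself did not order the libraries as the groups do. It stood at 25.5, 10.5 and 10.1 FPKM in A replicates 1 to 3 and at 14.6, 14.3 and 13.96 FPKM in G replicates 1 to 3. Between the groups FOXM1 changed by 0.03 on the log2 scale (95% interval -0.77 to 0.83). The table does not separate the endogenous transcript from the introduced one.

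No single one of the 39 genes passed the test over all genes, while most of them lay on the higher side in G. The test was limma on log2(FPKM + 1), adjusted by the Benjamini-Hochberg method over 12787 genes, and a change is the G mean minus the A mean of these log2 values; the added 1 shrinks the changes of genes with few FPKM. With an adjusted p under 0.05 as the threshold, 0 of 39 were called, where 0.109% of all tested genes were. At an unadjusted p under 0.05, 10 of 39 passed, all higher in G, where 10.5% of all tested genes passed in that direction and 6.82% in the other. In 14 of 39 every G library was above every A library, and in 0 of 39 every G library was below, against 15.4% and 9.57% of all tested genes. A positive log2 change was found in 32 of 39, against 55.1% of all tested genes, and the median log2 change was 0.15, against 0.02. Over 18 alternative settings the number with a positive change ranged from 29 to 36. In the other 25 genes the groups overlapped. At an unadjusted p under 0.05 the number in either direction was 20 without A replicate 1, of which 18 were higher, and 6 without A replicate 2. Over all tested genes the same number was 2212 with every library, 2712 without A replicate 1 and 1417 without A replicate 2. With the mitochondrial genes left out and the libraries rescaled, the median of the 39 was 0.19. In bulk RNA, a larger share of cells in mitosis and more RNA per mitotic cell cannot be told apart.

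**Figure D1:**
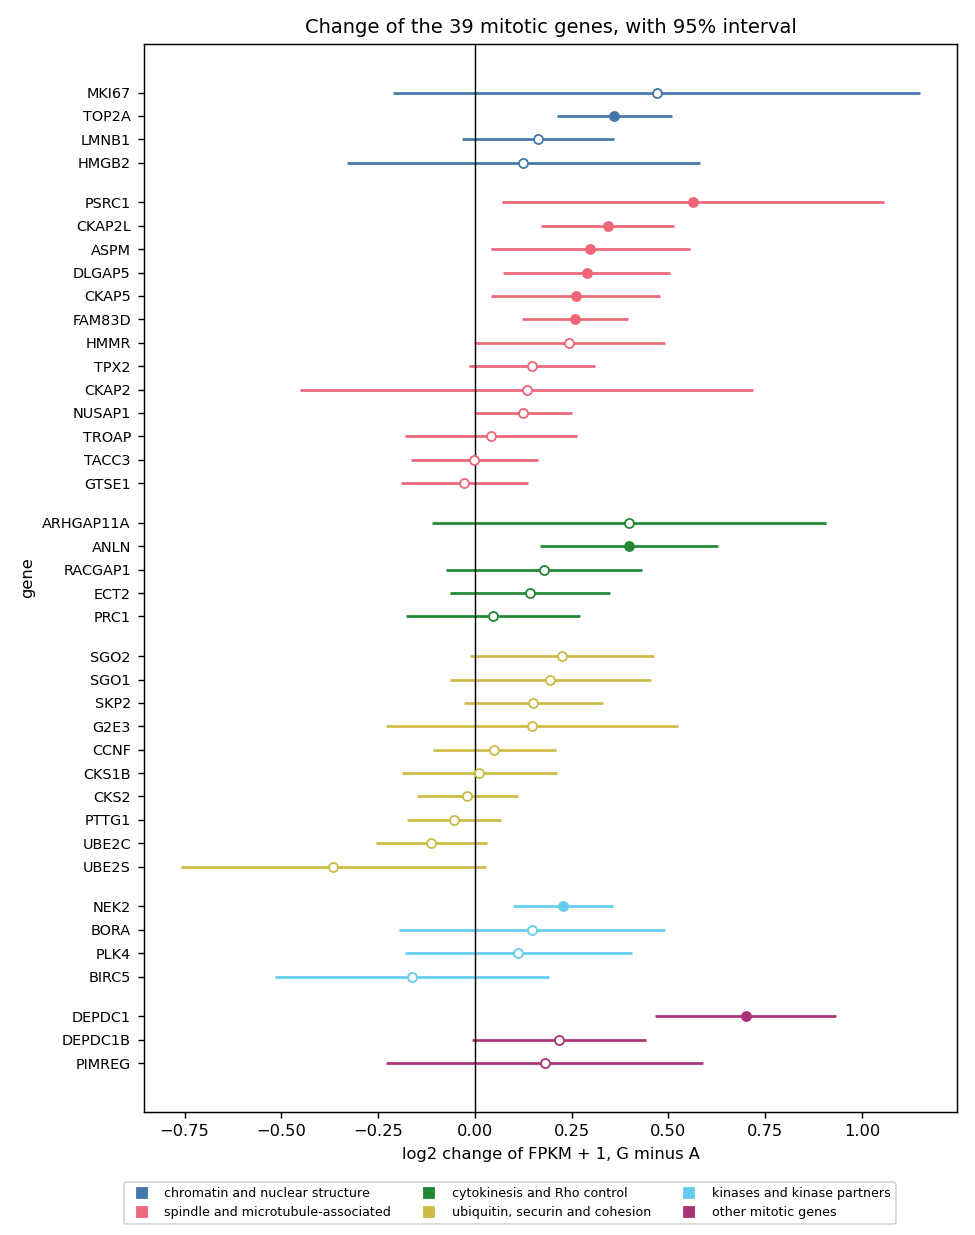
Log2 change of FPKM + 1, G minus A, of each of the 39 genes, in 6 groups by role; points are limma estimates, lines their 95% intervals, and filled points have an unadjusted p under 0.05. Filled points lie to the right of 0 in every role group except the ubiquitin, securin and cohesion group, which has none, and UBE2S lies farthest to the left, at -0.37.

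DEPDC1, a DEP-domain protein that is abundant in dividing tumour cells and contributes to mitotic progression, showed the largest change of the 39. It lies on chromosome 1 at 68474152 to 68497221 (ENSG00000024526). Its level was 4.77, 4.26 and 4.04 FPKM in the A libraries and 6.77, 8.43 and 7.93 FPKM in the G libraries. The lowest G library was thus above the highest A library, and the ratio of the means was 1.77. On the log2 scale the change was 0.70 ± 0.096 (SE; limma adjusted p = 0.11). Over the alternative settings this adjusted p ranged from 0.0599 to 0.298. Its relative DEPDC1B, at 3.85 to 4.39 FPKM in A and 4.397 to 5.49 FPKM in G, had groups that met without overlapping (log2 change 0.22). PIMREG, a mitotic regulator of the metaphase to anaphase transition, overlapped between 3.89 and 6.27 FPKM in A and 4.75 and 5.81 FPKM in G. A gene on the other strand of the DEPDC1 locus, AL138789, had means of 0.93 and 1.37 FPKM in A and G. The libraries were made with strand marking, but the authors' strand setting is not given in the sources used here.

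Among genes of chromatin and nuclear structure, TOP2A separated the groups and MKI67 did not. All 4 genes of this group had a change above 0, against 55.1% of all tested genes, and the median was 0.26. HMGB2 alone turned, to -0.05 without A replicate 1. TOP2A, the topoisomerase that untangles sister chromatids (chromosome 17, 40388525 to 40417896, ENSG00000131747), was at 34.3, 31.6 and 33.6 FPKM in A and at 45.4, 40.7 and 42.5 FPKM in G. Its log2 change was 0.36 ± 0.062 (SE; limma adjusted p = 0.15). All 3 G libraries were above all 3 A libraries, and the change ranged from 0.32 to 0.40 when each library was left out in turn. MKI67, which encodes the proliferation marker Ki-67, was at 14.8, 12.4 and 6.36 FPKM in A and at 13.2, 16.9 and 15.4 FPKM in G. Its log2 change of 0.47 rested on A replicate 3, without which it was 0.14. LMNB1, a nuclear lamina protein, was at 10.5 to 11.9 FPKM in A and 11.7 to 13.8 FPKM in G. HMGB2, a chromatin-bending protein, was at 34.97 to 51.9 FPKM in A and 39.7 to 55.5 FPKM in G, so both overlapped. HMGB2 has a transcribed pseudogene, HMGB2P1, at 1.84 FPKM in A, and its own level is uncertain to that extent.

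The spindle group held 6 of the 10 genes with an unadjusted p under 0.05, out of 13 members. Of these 13, 11 had a positive log2 change, 8 had groups that did not overlap, all higher in G, and the median log2 change was 0.24. Over all tested genes 55.1% had a positive change and 15.4% did not overlap and were higher in G. At an unadjusted p under 0.05, 10.5% of them were higher. The median of the spindle group ranged from 0.12 to 0.35 over the settings, and 0 of the 13 were called. CKAP2L, a spindle protein also known as radmis (chromosome 2, 112736349 to 112764664), was at 4.05, 4.58 and 3.91 FPKM in A and at 5.61, 5.53 and 5.55 FPKM in G. FAM83D, which recruits casein kinase 1 to the spindle (chromosome 20, 38926312 to 38953106), was at 17.7, 15.97 and 17.4 FPKM in A and at 20.6, 20.5 and 20.6 FPKM in G. In both genes the G libraries lay within a narrow band above every A library. The log2 changes were 0.34 ± 0.071 (SE) for CKAP2L and 0.26 ± 0.057 (SE) for FAM83D, with limma adjusted p of 0.16 and 0.17.

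DLGAP5, CKAP5, ASPM and PSRC1 were also higher in every G library than in any A library. DLGAP5, which strengthens kinetochore fibres (chromosome 14, 55148112 to 55191608), was at 14.9, 13.4 and 13.8 FPKM in A and at 19.6, 15.8 and 16.96 FPKM in G. CKAP5, the microtubule polymerase ch-TOG (chromosome 11, 46743048 to 46846308), was at 24.7, 23.6 and 22.6 FPKM in A and at 32.5, 26.2 and 27.0 FPKM in G. In both, G replicate 1 was the highest library, and without it the log2 change of CKAP5 went from 0.26 to 0.17.

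ASPM, a spindle-pole protein mutated in primary microcephaly (chromosome 1, 197084127 to 197146694), was at 7.75, 6.10 and 6.43 FPKM in A and at 9.41, 8.42 and 7.75 FPKM in G, so the groups touched. PSRC1, a microtubule-binding protein (chromosome 1, 109279556 to 109283186), was at 6.70, 5.34 and 3.31 FPKM in A and at 7.38, 8.13 and 7.91 FPKM in G. The A libraries of PSRC1 spread widely, and without A replicate 3 its log2 change went from 0.56 to 0.33. The log2 changes of DLGAP5 and ASPM were 0.29 ± 0.090 (SE) and 0.30 ± 0.11 (SE), and the standard errors for CKAP5 and PSRC1 were 0.091 and 0.20. The limma adjusted p was 0.21 for DLGAP5, 0.242 for CKAP5, 0.244 for ASPM and 0.248 for PSRC1. Next in order came HMMR, a hyaluronan receptor that also binds spindle microtubules, with groups that overlapped (21.9 to 26.5 FPKM in A, 25.8 to 32.1 FPKM in G). Its log2 change was 0.24 ± 0.10 (SE; limma adjusted p = 0.291). NUSAP1, which bundles microtubules near chromatin, was at 25.8 to 27.6 FPKM in A and 28.3 to 30.2 FPKM in G, without overlap (log2 change 0.12 ± 0.052 (SE), limma adjusted p = 0.292).

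The other spindle genes were TPX2, CKAP2, TROAP, TACC3 and GTSE1. TPX2, the activator of Aurora A on spindle microtubules and the most abundant of the group, was at 43.2 to 49.05 FPKM in A and at 49.2 to 54.0 FPKM in G. CKAP2, a spindle microtubule stabiliser, was at 7.81 to 14.1 FPKM in A and 9.59 to 14.8 FPKM in G, and TROAP at 9.07 to 9.26 FPKM in A and 8.23 to 10.6 FPKM in G. TACC3, the ch-TOG partner on spindle fibres, was at 7.71, 7.70 and 7.16 FPKM in A and at 7.80, 6.97 and 7.80 FPKM in G. GTSE1, a microtubule plus-end protein that restrains p53, was at 5.43, 5.10 and 5.64 FPKM in A and at 5.07, 5.60 and 5.14 FPKM in G. Both had groups that overlapped fully, with log2 changes of -0.001 and -0.03 and 95% intervals of -0.17 to 0.16 and -0.19 to 0.14. Their signs turned in 7 and 3 of 18 alternative settings. CKAP5 and TACC3 act as a complex on spindle fibres, and their changes are given here side by side without a test of the difference.

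**Figure D2:**
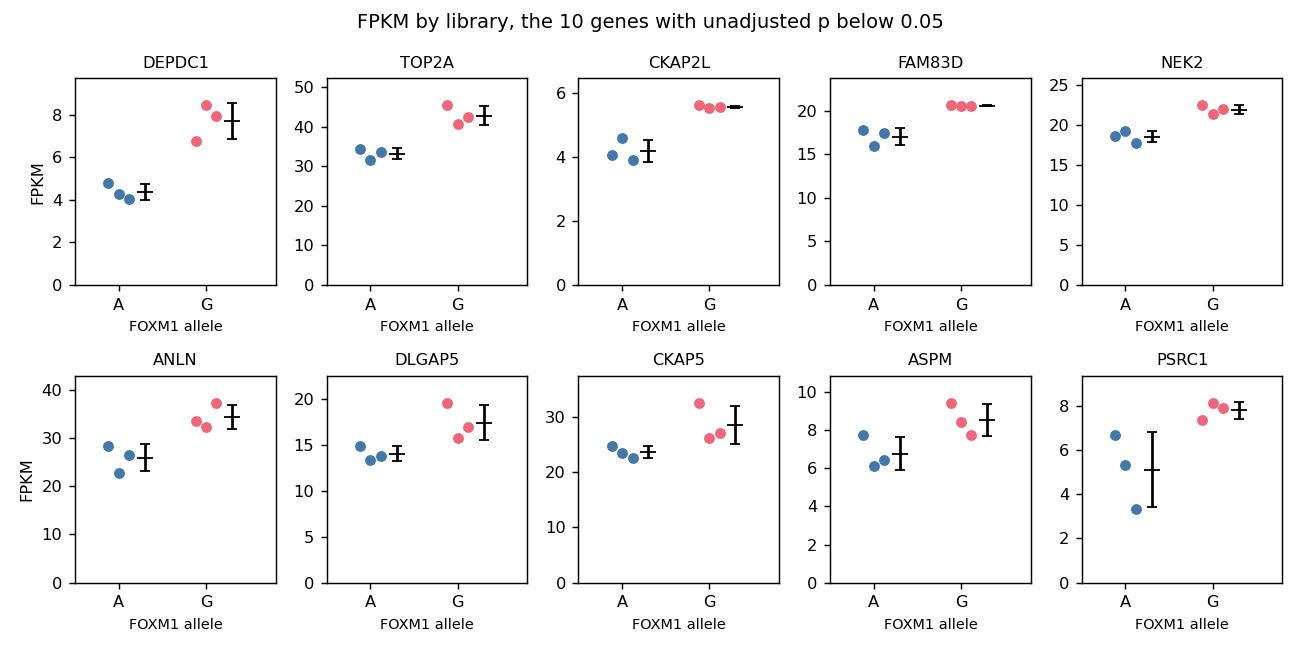
FPKM in each library for the 10 genes with an unadjusted p under 0.05, with A libraries on the left and G libraries on the right of each panel; bars beside the points are the mean ± SD of 3 libraries. In every panel the lowest G point is above the highest A point, by the smallest margin in ASPM (7.75 FPKM on both sides after rounding). The genes were chosen by that p from the same libraries, a choice that favours such separation.

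In the cytokinesis group ANLN stood apart. All 5 members had a positive log2 change, against 55.1% of all tested genes, and that of PRC1 turned in 3 of the 18 settings. ANLN encodes anillin, the scaffold that links actin, septins and RhoA in the contractile ring (chromosome 7, 36389821 to 36453791, ENSG00000011426). It was at 28.3, 22.8 and 26.5 FPKM in A and at 33.5, 32.2 and 37.2 FPKM in G. The G libraries were all higher, and the log2 change was 0.40 ± 0.095 (SE; limma adjusted p = 0.18). ECT2, the exchange factor that activates RhoA at the midzone, was at 15.7 to 17.8 FPKM in A and 16.8 to 20.3 FPKM in G. RACGAP1, its partner in centralspindlin, was at 16.4 to 20.1 FPKM in A and 18.7 to 22.99 FPKM in G. PRC1, which cross-links midzone microtubules, was at 16.1 to 18.1 FPKM in A and 15.5 to 19.4 FPKM in G. All of these overlapped between the groups. PRC1 shares its strand with the overlapping gene AC068831 (3.44 FPKM in A, 5.25 FPKM in G), so reads may be split between them. ARHGAP11A, a RhoA-directed GTPase-activating protein, was low, at 1.27 to 2.65 FPKM in A and 2.29 to 3.64 FPKM in G. Its log2 change of 0.40 was 0.23 without A replicate 2 and 0.24 without G replicate 3. The group's median log2 change was 0.18, with a range of 0.12 to 0.28 over the settings.

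The genes of ubiquitin transfer, securin and cohesion stood nearest to the background. At an unadjusted p under 0.05, 0 of these 10 passed, where 17.3% of all tested genes did. A positive log2 change was found in 6, against 55.1% of all tested genes, and the median log2 change was 0.03. Over the settings that median ranged from 0.005 to 0.13, the highest value coming with each library scaled to the same summed FPKM. The most abundant of all 39 genes belong here. UBE2C, the ubiquitin-conjugating enzyme that starts chains for the anaphase-promoting complex, was at 95.4, 107.7 and 106.3 FPKM in A and at 94.6, 93.5 and 97.5 FPKM in G. UBE2S, which extends those chains (chromosome 19, 55399745 to 55407788), was at 88.8, 114.4 and 116.9 FPKM in A and at 65.9, 91.9 and 90.8 FPKM in G. Replicate 1 was the lowest library of UBE2S in both groups, and the groups overlapped in both genes. The log2 change was -0.37 ± 0.16 (SE) for UBE2S and -0.11 ± 0.060 (SE) for UBE2C, with limma adjusted p of 0.316 and 0.384. The change of UBE2C was -0.005 with each library scaled to the same summed FPKM and -0.03 with quantile normalization. Without G replicate 1 the log2 change of UBE2S was -0.21. Its unadjusted limma p was 0.064, and 0.0011 with the replicate numbers as a block in the fit (adjusted p = 0.261). UBE2S lies opposite RPL28, a ribosomal protein gene with means of 412 and 355 FPKM in A and G, and its copy UBE2SP1 was at 10.7 and 9.66 FPKM, so its level is uncertain.

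PTTG1, CKS2 and CKS1B had changes near 0. PTTG1, the securin that holds separase inactive, was at 44.3, 43.8 and 42.9 FPKM in A and at 43.2, 42.9 and 40.05 FPKM in G. Its log2 change was -0.05 ± 0.050 (SE; limma adjusted p = 0.604), and it turned to 0.05 with each library scaled to the same summed FPKM. CKS2, a small subunit of cyclin-dependent kinases, was at 82.5, 91.2 and 82.8 FPKM in A and at 84.4, 84.8 and 83.4 FPKM in G (log2 change -0.02, 95% interval -0.15 to 0.11), and its sign turned in 5 of the 18 settings. The single high value of CKS2 was A replicate 2. Its homologue CKS1B, which helps SKP2 bind p27, was at 23.3 to 28.1 FPKM in A and 24.7 to 27.6 FPKM in G (log2 change 0.01). A copy of CKS1B, CKS1BP3, had means of 15.8 and 15.1 FPKM in A and G, so CKS1B is uncertain.

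SGO2, which shields centromeric cohesin, was the 1 gene of these 10 whose groups did not overlap, where 15.4% of all tested genes did so and were higher in G. The margin was a hair: 3.12 to 4.062 FPKM in A and 4.065 to 4.69 FPKM in G. KCTD18, on the other strand of that locus, had means of 2.99 and 5.70 FPKM in A and G. SGO1, the mitotic shugoshin, was the lowest of the 39, at 1.25 to 1.76 FPKM in A and 1.61 to 1.96 FPKM in G. SKP2, the F-box protein that marks p27 for destruction, was at 10.96 to 13.1 FPKM in A and 13.0 to 13.7 FPKM in G. CCNF, the F-box protein cyclin F, was at 5.63 to 6.15 FPKM in A and 5.85 to 6.46 FPKM in G. G2E3, a ubiquitin ligase, was at 2.27 to 3.64 FPKM in A and 2.99 to 3.98 FPKM in G. These 4 overlapped between the groups, with log2 changes of 0.19, 0.15, 0.05 and 0.15. The change of G2E3 turned to -0.01 without A replicate 1, and without A replicate 2 that of SKP2 was 0.09 and that of CCNF 0.02.

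Among kinases and their partners, NEK2 separated the groups, and 3 of 4 genes had a positive log2 change, against 55.1% of all tested genes. NEK2, which splits the centrosomes before mitosis (chromosome 1, 211658657 to 211675630), was at 18.7, 19.3 and 17.8 FPKM in A and at 22.5, 21.4 and 22.0 FPKM in G. The spread within each group was small beside the gap, and the log2 change was 0.23 ± 0.053 (SE; limma adjusted p = 0.18). BIRC5, or survivin, the subunit that anchors the chromosomal passenger complex (chromosome 17, 78214186 to 78225636), was at 4.83, 6.56 and 5.02 FPKM in A and at 4.14, 5.80 and 4.41 FPKM in G. Replicate 2 was the highest library of BIRC5 in both groups. Its log2 change was -0.16 ± 0.15 (SE; limma adjusted p = 0.593), and it was -0.05 without A replicate 2 and -0.29 without G replicate 2. PLK4, the kinase that starts centriole duplication, was at 2.96 to 4.07 FPKM in A and 3.54 to 4.50 FPKM in G. BORA, the activator of Aurora A towards PLK1, was at 3.50 to 4.75 FPKM in A and 3.88 to 5.64 FPKM in G. Both overlapped, with log2 changes of 0.11 and 0.15. For PLK4 the change was 0.02 without A replicate 2 and 0.03 without G replicate 1, and for BORA it was 0.03 without G replicate 1.

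The most abundant genes were not those with the largest changes. The levels, per length, ran from 1.63 FPKM for SGO1 to 99.2 FPKM for UBE2C as means of all 6 libraries, with a median of 12.7 FPKM. UBE2C, UBE2S and CKS2 (84.9 FPKM) came first, and the next gene, TPX2, was at 48.4 FPKM. The libraries of UBE2S spanned those of both UBE2C and CKS2, so their order is not settled beyond the spread. In all, 13 genes were above 20 FPKM, 18 between 5 and 20 FPKM and 8 below 5 FPKM. The 3 most abundant genes had negative log2 changes, and DEPDC1, with the largest change, was at 6.03 FPKM. The spread within groups was like that of other genes, with a median coefficient of variation of 8.59% in A and 9.69% in G, against 9.14% and 8.53% over all tested genes. MKI67 and ARHGAP11A varied most in A, at 38.9% and 36.9%.

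The genes shifted by library as well as by group. The median deviation of the 39 genes from their own means, on the log2 scale, was -0.03, -0.13 and -0.06 in A replicates 1 to 3 and 0.13, 0.04 and 0.11 in G replicates 1 to 3. Over all tested genes the same medians lay between -0.02 and 0.02. A replicate 2 was the lowest of the 6 libraries for 18 of the 39 genes, and G replicate 1 the highest for 17. Within their own groups, A replicate 1 was the highest A library for 21 genes and G replicate 2 the lowest G library for 21. The A library with the highest FOXM1 level, replicate 1 at 25.5 FPKM, had a lower median deviation of the 39 genes than any G library, and those were at 13.96 to 14.6 FPKM of FOXM1. Whether either level bears on the other was not tested.

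**Figure D3:**
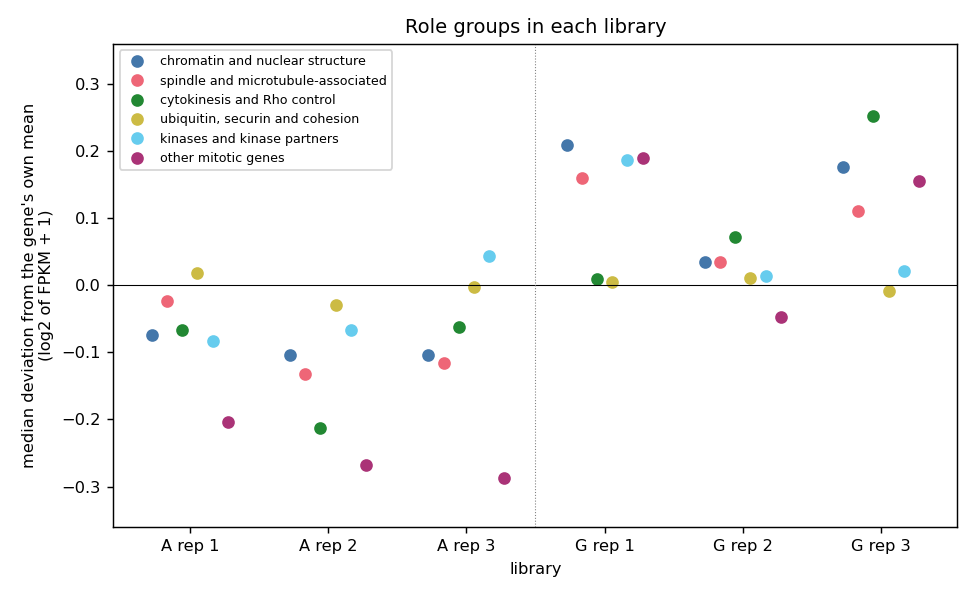
Median deviation of each role group from the genes' own means, in log2 of FPKM + 1, for each of the 6 libraries. The ubiquitin, securin and cohesion group stays between -0.03 and 0.02 in every library. The chromatin, spindle and cytokinesis groups are below 0 in all A libraries and above 0 in all G libraries.

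Other genes of the same machinery showed a like picture. The 36 G2/M genes outside the 39 were mainly kinesins, kinetochore and checkpoint genes, mitotic kinases and cyclins. Of these 36, 27 changed in the positive direction, against 55.1% of all tested genes, and the median log2 change was 0.14. At an unadjusted p under 0.05, 10 were higher and 0 lower, where 10.5% and 6.82% of all tested genes were, and 0 were called. The 3 with the smallest p were CENPF, a kinetochore protein (15.5 ± 0.97 FPKM in A, 20.1 ± 0.76 in G, SD), KIF11, the motor that separates spindle poles (14.4 ± 0.89 and 18.6 ± 0.73 FPKM), and CENPE, a kinetochore motor (2.23 ± 0.16 and 2.96 ± 0.13 FPKM). Their log2 changes were 0.35, 0.34 and 0.29. In the list of FOXM1 and its partners, 8 of 11 were positive, against 55.1% of all tested genes, with a median of 0.06. At an unadjusted p under 0.05, 3 of the 11 passed, where 17.3% of all tested genes did, and 0 were called. Those 3 were RBL2, the p130 subunit of DREAM (38.4 ± 1.17 and 45.6 ± 0.99 FPKM), MYBL2 (57.9 ± 1.11 and 65.8 ± 0.69 FPKM) and LIN9 of MuvB (2.94 ± 0.10 and 3.56 ± 0.12 FPKM). Their log2 changes were 0.24, 0.18 and 0.21. These 3 of the 11 were the ones higher in every G library than in any A library, where 15.4% of all tested genes were.

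Genes of the G1/S transition, which E2F factors switch on before replication, lay at the background. Of 20, 11 lay above 0, against 55.1% of all tested genes, and the median log2 change was 0.01. At an unadjusted p under 0.05, 2 of the 20 passed, where 17.3% of all tested genes did, and 0 were called. The 3 with the smallest p were MCM6, a subunit of the replicative helicase (5.11 ± 0.41 and 6.22 ± 0.24 FPKM), RRM1, of ribonucleotide reductase (21.3 ± 0.94 and 24.3 ± 1.10 FPKM), and SLBP, the histone mRNA binding protein (24.4 ± 1.35 and 20.8 ± 2.85 FPKM). Their log2 changes were 0.24, 0.18 and -0.23. No test of the difference between the G1/S list and the late mitotic genes was made. All lists were written with earlier results of these data known.

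**Figure D4:**
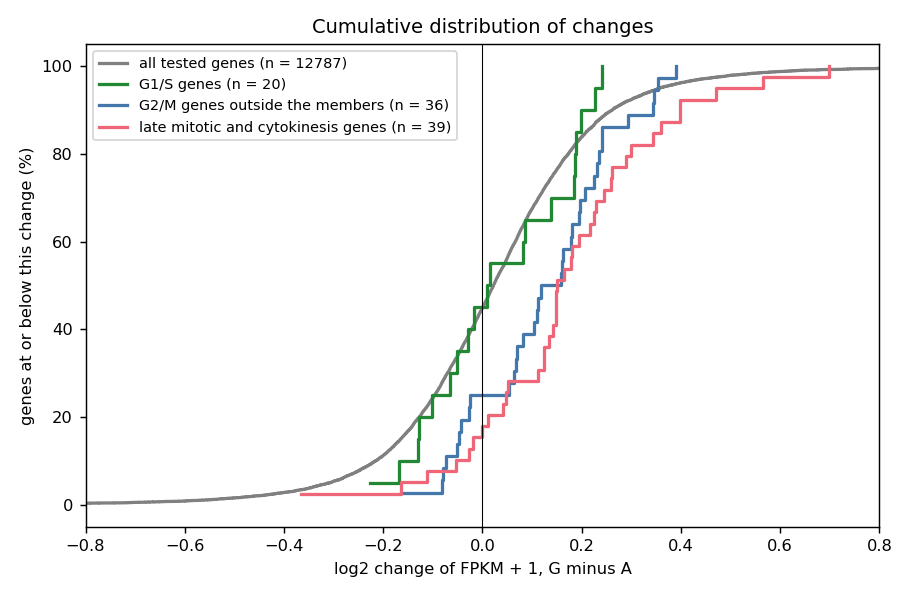
Cumulative share (percent) of genes at or below each log2 change of FPKM + 1, G minus A, for all 12787 tested genes, the 39 late mitotic and cytokinesis genes, 36 other G2/M genes and 20 G1/S genes. The curves of the 39 and the 36 genes run to the right of that of all genes over most of the range (medians 0.15, 0.14 and 0.02), and the G1/S curve runs near it (median 0.01).

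Transcript length and base composition moved with the change over all genes. Across the tested genes, Spearman's rho between the log2 change and the length of the most abundant transcript was 0.34, and between the change and its GC content -0.28; among the 39 genes the values were 0.44 and -0.44. These are correlations across genes that share the same 6 libraries, and genes are not independent replicates. All genes longer than 6000 bases had a median change of 0.15 and those of up to 1000 bases one of -0.06. Of the 39, the 12 longer than 4000 bases all had a positive change, while 2 of the 5 of up to 1000 bases did. The short ones were UBE2C, CKS1B, CKS2, PTTG1 and NUSAP1, the last because its most abundant transcript was a retained-intron form of 485 bases. Set against the median of genes of their own length class, 32 of the 39 were higher. With trends over length and GC content removed, a setting chosen after seeing the data, the median of the 39 was 0.12, against -0.01 for all genes. ASPM (10863 bases) then went from 0.30 to 0.10 and CKAP5 (7121 bases) from 0.26 to 0.12. DEPDC1 went from 0.70 to 0.56, TOP2A from 0.36 to 0.22 and ANLN from 0.40 to 0.28. What else these trends go with was not tested.

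**Figure D5:**
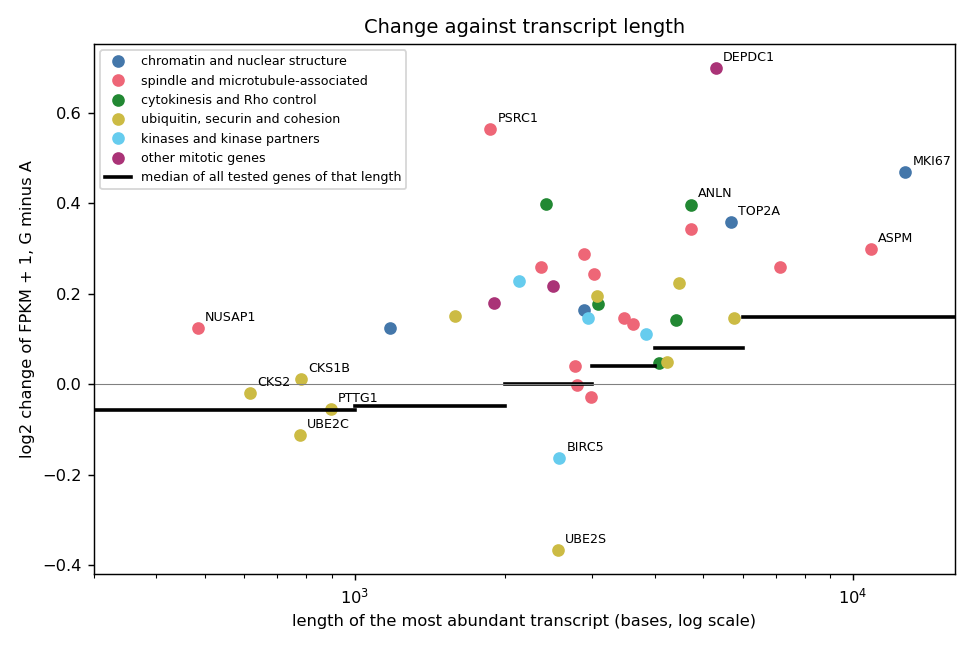
Log2 change of FPKM + 1, G minus A, of the 39 genes against the length in bases of their most abundant transcript (log axis), coloured by role; black lines give the median change of all tested genes of each length class. The lines step up from -0.06 to 0.15, and 32 of the 39 points lie above the line of their class.

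Genes with and without the CHR letters both had positive medians. The median log2 change was 0.21 for the 22 genes with TTTGAA or TTCGAA in a window and 0.15 for the 9 without, with 20 of 22 and 6 of 9 positive. CKS2, CKS1B and GTSE1, whose printed stretches hold a CHR within 50 bases before the RefSeq start, had changes of -0.02, 0.01 and -0.03. DEPDC1 and CKAP2L, with the same letters, had 0.70 and 0.34. NEK2, at 0.23, has CCAAT letters and no CHR letters in its window. This comparison was given no test.

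At the level of transcripts, no form of the 39 genes was called. Forms with an unadjusted p under 0.05 were no larger a share than among all tested transcripts. The table held 347 transcripts of the 39 genes, of which 108 were tested with the same limma fit over 29990 transcripts. Of the 108, 0 were called, where 0.147% of all tested transcripts were, and 6 had an unadjusted p under 0.05, 5 of them higher in G, where 7.81% of all passed in either direction. The most abundant transcript carried a median of 67.3% of its gene, and 29 of the 39 had a positive change. The main forms of TOP2A, ANLN, DEPDC1 and CKAP2L were higher in every G library than in any A library, as their genes were. How many of all tested transcripts are positive or separate in this way was not counted. For TOP2A the form ENST00000423485, with 93.4% to 97.1% of the gene's transcript FPKM, was at 36.9 ± 1.66 FPKM in A libraries and 47.7 ± 2.73 FPKM in G libraries (SD, n = 3). For ANLN, ENST00000265748 was at 28.9 ± 3.13 and 39.3 ± 2.40 FPKM, and for DEPDC1, ENST00000456315 was at 3.75 ± 0.33 and 6.37 ± 1.35 FPKM. CKAP2L (ENST00000302450, 4.78 ± 0.42 and 6.37 ± 0.040 FPKM) showed the narrowest spread in G.

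In NEK2, CKAP5, DLGAP5 and PSRC1 the main form did not separate the groups. ENST00000366999 of NEK2 was at 21.4 ± 2.27 and 22.1 ± 3.93 FPKM, and ENST00000529230 of CKAP5 at 26.7 ± 1.70 and 28.1 ± 9.36 FPKM, so both overlapped. The CKAP5 form was at 38.4 FPKM in G replicate 1 and 20.2 FPKM in G replicate 3, where ENST00000312055 of the same gene was at 0.27 and 10.1 FPKM. ENST00000247191 of DLGAP5 was at 12.2 ± 2.94 and 14.6 ± 2.07 FPKM. The main forms of ASPM and FAM83D, unlike these, were higher in every G library than in any A library. ENST00000367409 of ASPM was at 6.28 ± 0.27 and 7.81 ± 0.26 FPKM, and ENST00000619850 of FAM83D at 16.6 ± 1.46 and 19.4 ± 1.73 FPKM. ENST00000492431, the main form of PSRC1 and a retained-intron transcript, was at 4.39 ± 3.57 and 6.53 ± 3.33 FPKM. The forms of CKAP2 exchanged shares between libraries: ENST00000490903 was at 5.72, 16.5 and 3.57 FPKM in A and at 3.09 and 0.95 FPKM in G replicates 1 and 2, with no estimate in G replicate 3. ENST00000258607 of the same gene reached 17.5 FPKM in G replicate 3, and the gene as a whole had a log2 change of 0.13, which ranged from -0.06 to 0.35 with each library left out. Shares of near-identical forms are estimates and can move between libraries without any change of the gene.

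In the authors' deposited table, 5 of the 39 genes had a p under 0.05, where 5.08% of the tested genes did. They were DEPDC1, ANLN, PSRC1 and TOP2A, with positive log2 changes of 0.82, 0.41, 0.61 and 0.37 in the authors' deposited table, and UBE2S, with -0.36. The smallest q there was 0.0233, for DEPDC1, and the authors' deposited table marks 0 of the 39 as significant. All 39 signs were the same in the authors' deposited table as in the limma fit, which rests on the same 6 libraries.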

How the data were processed

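Poly(A) RNA of 6 PC9 libraries, 3 with the A and 3 with the G allele, was analysed from 2 deposited tables, of genes and of transcripts. The authors' tools were StringTie 1.3.4d, HISAT2 2.0.4 and cutadapt 1.9, per the submitters' processing notes. Those notes name a mouse build, but the features are human: of 206348 transcripts matched to GENCODE 29, 94.6% were at an identical GRCh38 position, so positions are on GRCh38. Values are FPKM, computed by the authors; per the file headers the deposited tables also hold a fold ratio of G over A, its log2 value, and a p-value and q-value. FPKM carries no counts, and depth was estimated from the step 1 read pair makes in single-exon genes over 400 bases, sought within a preset window. A value of 0.0001 stands for no estimate.

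Values were taken as log2(FPKM + 1). Genes that reached 1 FPKM in 3 or more of the 6 libraries (12787) and transcripts by the same rule (29990) were tested, G against A, with limma-trend (limma 3.58.1, R 4.3.3), Benjamini-Hochberg adjustment over each table and a threshold of 0.05. The fit was tested on simulated data. Counts and medians over lists were made in pandas 2.3.3 under Python 3.11.15. Promoter letters come from RefSeq windows (GRCh38.p14); protein sequences were not used here.

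The 39 members and all lists (36 other G2/M genes, 11 of FOXM1 and its partners, 20 G1/S genes, epithelial, fibroblast, leukocyte and endothelial markers) were chosen with earlier results of these data known. Values in every library were given for members with an unadjusted p under 0.05 or a negative change, full statistics for the 12 smallest p and the 4 most negative changes, and of each other list the 3 smallest p were named. Alternatives changed the pseudocount, filter, scaling, variance model, weights, replicate block, mitochondrial genes and libraries; removal of length and GC trends was added after seeing the data. Genes overlapped by another gene of at least 0.2 FPKM (15 of the 39, 7 on the same strand) and those with expressed copies are less certain.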

Additional observations from a re-analysis of the deposited data

How the results depend on the processing

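Of the 39 genes, 0 were called in the limma fit and 0 in each of the 18 alternative settings, where the smallest adjusted p was 0.0599 (DEPDC1, with library weights). A change of the same sign in every setting was found for 28 genes, 25 higher and 3 lower in G (UBE2S, UBE2C and BIRC5), though UBE2C came to -0.005 with equal sums (adjusted p = 0.962). Leaving out 1 library moved the log2 change by over 1.5 times or turned it for 24 of the 39, which include 2 of the 10 with an unadjusted p under 0.05. For the 16 genes given in full, 287 of 288 values kept their sign and side of the threshold, and PTTG1 turned to 0.052 (adjusted p = 0.575) with each library scaled to equal sums. The median log2 change of the 39, 0.15, was 0.25 with equal sums (all genes: 0.11), and 0.13 to 0.22 with each library left out in turn, the highest without G replicate 2. Its difference from the median of all genes was 0.11 to 0.20 over the settings.

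The count of calls over all genes, 14, was 1 without a filter, 9 with median-ratio factors, 6 with quantile normalization, 4 without a variance trend, 6 without mitochondrial genes and 6 with the length trend removed. It was 5 to 20 with each library left out. The split was 4 higher and 10 lower, 7 and 8 with equal sums, and 1 and 8 with median-ratio factors. Transcript calls, 44, were 23 with a pseudocount of 0.1 and 7 to 37 with each library left out. The fits that left 1 library out also had fewer libraries, and the cause of these moves was not tested.

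Whether the replicate numbers pair the samples was not settled. Same-numbered A and G libraries correlated at 0.07, 0.02 and 0.04, and differently numbered ones at -0.06 to 0.02. G replicate 2 correlated alike with A replicate 2 (0.0154) and A replicate 3 (0.0155). With a replicate block, 0 genes and 0 transcripts were called (2148 genes and 1925 transcripts at an unadjusted p under 0.05). Of the 39 genes, 18 had an unadjusted p under 0.05 instead of 10, with 17 higher in G and UBE2S lower. The number was 19 with equal sums, 17 with library weights and 15 without mitochondrial genes, of which 19, 16 and 15 were higher in G. Of all tested genes 3133, 2788 and 2337 passed, against 2212 with none of these changes. The FPKM carry no counts, so the counting error of low genes such as SGO1 is unknown. The comparison of protein sequences that was planned was not run.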
